A study of Homo sapiens with 27 samples.

Results

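Relative to the other autosomes of the same library, most of chromosome 20 carried fewer O6-methylguanine-seq sites per 100 kb in the MGMT-transfected LN-229 line than in the WT line, in treated cells, in solvent-exposed cells and in naked DNA. At the distal end of the long arm the difference was smaller, though mostly in the same direction, and the lines overlapped. Chromosome 20 was divided into 100 kb windows, and only sites with a deposited score of 30 or more were counted. At least 1 such site was listed in 644 windows of chromosome 20, out of 29072 windows of chromosomes 1 to 22 and X. Of these 644, 622 held at least 10 sites in at least 3 of the 12 libraries of cells exposed 3 times and were used. The other 22 lay between positions 26400001 and 28500000 (21 windows) and between 30000001 and 30100000 (1 window), in and next to the centromeric region. Chromosome 20 was chosen because the density of the lines was known to differ on it, so the differences between the lines are given as descriptions.

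Temozolomide (TMZ) is a methylating drug used against glioblastoma, and O6-methylguanine is the lesion to which most of its toxicity is attributed. The enzyme MGMT takes the methyl group off the guanine and onto itself, one lesion per molecule. Cancer cell lines commonly carry gains and losses of whole chromosomes, arms or smaller pieces, and the number of sites that a library can list in a region depends on how much DNA of that region entered it.

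LN-229 is an established human glioblastoma cell line. O6-MeG-seq enriches sheared fragments that hold O6-methylguanine with an antibody and records the position at which a polymerase stops. Cells labelled WT or MGMT-transfected received 1 mM TMZ, or 1% DMSO as the solvent, either 1 time or 3 times (every 4 h), and DNA came from cells 24 h after exposure began, which gave 8 groups of 3 libraries. In addition, DNA taken out of cells (naked DNA) was treated with 1 mM TMZ in 1 library each from non-transfected cells (replicate 1), from the WT line (replicate 2) and from the MGMT-transfected line (replicate 3). The labels name no clone, promoter or vector for the MGMT-transfected line, and do not say whether libraries of a group come from separate cultures, so the p-values below measure the spread between these libraries only. Transfection with MGMT and any other difference between the lines cannot be told apart here.

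The libraries listed 1347019 to 15745885 sites, of which 24117 to 542582 with a score of 30 or more were on chromosome 20. Chromosome 20 made up 3.70% to 4.36% of autosomal sites in the 12 WT libraries of cells and 2.9% to 3.79% in the 12 MGMT libraries. A site is listed once however often it was read, so these are distinct positions and not reads. G was the listed base at 19.0% to 43.7% of autosomal sites in solvent libraries, 32.6% to 64.1% in TMZ libraries and 67.8% to 70.9% in naked DNA. The MGMT solvent library of 1 exposure, replicate 1, stood apart from its group. Its G share was 43.7%, above the 37.4% of the MGMT TMZ library of 1 exposure, replicate 1, which goes against the order of the labels. Of its chromosome 20 sites at A, C and T, 20.9% were also listed in that TMZ library and 16.8% in the naked DNA library of non-transfected cells. The median over 351 pairs of libraries was 0.25%. The WT solvent library of 1 exposure, replicate 1, had the highest G share of the WT solvent libraries, 27.8%, and shared 15.6% of these sites with the naked DNA library of non-transfected cells and 10.1% with the WT TMZ library of 1 exposure, replicate 1. Among libraries of 3 exposures, the WT solvent library of replicate 1 shared 4.0% with the MGMT solvent library of replicate 1. It shared 3.0% with the WT and 2.8% with the MGMT TMZ library of that number. Values with and without the solvent pair of 1 exposure, replicate 1, and with and without shared sites, are given below.

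Breaks were placed where the mean log2 ratio of the MGMT over the WT line changed along the chromosome in the libraries of cells exposed 3 times. Of the 3 breaks found in 100 kb windows, 2 were placed at an edge that lies inside a gene, though finer windows placed both outside it. The sequences upstream of some of the genes at or next to these 2 breaks show what the site lists consist of at single bases. Shown are the 250 bases before the annotated start of RSPO4 (at break 1 in 100 kb windows, chr20:1002312-1002561, minus strand), PSMF1 (first gene to the right of break 1, chr20:1113013-1113262, plus strand), PMEPA1 (at break 3 in 100 kb windows, chr20:57711473-57711722, minus strand) and CIMIP1 (first gene to the right of break 3, chr20:58150652-58150901, plus strand). The sequences are from RefSeq, GRCh38.p14, 5′ to 3′ on the gene's strand. Capitals mark a G listed in at least 1 of the 12 TMZ libraries of cells; a capital C means that the G is on the other strand.
RSPO4: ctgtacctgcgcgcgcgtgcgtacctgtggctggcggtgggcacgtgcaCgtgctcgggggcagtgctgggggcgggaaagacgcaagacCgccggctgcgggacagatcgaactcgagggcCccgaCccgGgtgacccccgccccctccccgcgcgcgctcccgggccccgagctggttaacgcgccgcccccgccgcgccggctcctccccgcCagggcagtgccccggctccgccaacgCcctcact
PSMF1: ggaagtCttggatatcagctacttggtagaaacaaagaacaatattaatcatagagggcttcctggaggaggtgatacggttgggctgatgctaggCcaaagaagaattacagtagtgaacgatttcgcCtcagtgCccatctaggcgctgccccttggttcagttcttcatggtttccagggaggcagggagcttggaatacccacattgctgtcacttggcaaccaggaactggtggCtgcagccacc
PMEPA1: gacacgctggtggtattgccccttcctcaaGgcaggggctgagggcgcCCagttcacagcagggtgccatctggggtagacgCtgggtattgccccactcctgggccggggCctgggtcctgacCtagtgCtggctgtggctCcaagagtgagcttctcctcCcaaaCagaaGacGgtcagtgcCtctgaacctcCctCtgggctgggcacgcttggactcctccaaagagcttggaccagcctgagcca
CIMIP1: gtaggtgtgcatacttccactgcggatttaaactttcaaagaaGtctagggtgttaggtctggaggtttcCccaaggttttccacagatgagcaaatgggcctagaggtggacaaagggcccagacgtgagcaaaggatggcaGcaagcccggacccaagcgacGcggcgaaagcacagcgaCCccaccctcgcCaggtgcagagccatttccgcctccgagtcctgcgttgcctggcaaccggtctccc
In these windows the TMZ libraries of cells listed 7 G positions upstream of RSPO4, 5 upstream of PSMF1, 15 upstream of PMEPA1 and 7 upstream of CIMIP1. The solvent libraries listed 1, 0, 1 and 0 G sites in the same order, and whether TMZ made each listed site was not tested. The 250 bases upstream of ANGPT4, the first gene to the left of break 1, are not shown and went the other way. There the TMZ libraries of cells listed 3 G positions (2 sites in WT and 1 in MGMT) and the solvent libraries 4 G sites. The WT and MGMT libraries with TMZ listed 2 and 5 sites at RSPO4, 5 and 1 at PSMF1, 10 and 6 at PMEPA1, and 7 and 1 at CIMIP1. At most 1 position of a window was listed in both lines, so single promoters hold too few sites to compare the lines, and the comparison rests on windows with a median of 118 to 184 sites per library of cells exposed 1 time, depending on the segment.

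The 3 breaks divided the chromosome into 4 segments. Their number depended on the libraries and sites used: the same penalty gave 2 breaks, and none near break 1, with G alone, with 3 solvent exposures alone or with 1 solvent exposure, and 7 with 3 TMZ exposures alone. It gave 4 with 1 TMZ exposure, with no minimum score or without replicate 2, and 3 in naked DNA. With no minimum score an added break lay at 31200001, and with 1 TMZ exposure or 3 TMZ exposures alone at 31300001, inside segment 3. Another lay inside segment 4, at 61800001 with 3 TMZ exposures alone and at 62100001 without replicate 2. Segment 1, chr20:1-1000000, had 10 windows and 22 protein-coding genes. Segment 2, chr20:1000001-25800000, took in most of the short arm, with 248 windows and 158 protein-coding genes. Segment 3, chr20:25800001-57700000, ran from next to the centromeric block along most of the long arm, with 297 windows and 271 protein-coding genes. Segment 4, chr20:57700001-64334104, was the distal end of the long arm, with 67 windows and 86 protein-coding genes. Segments 1 to 3 were taken as unequal because their mean log2 ratio was 0.2 or more away from 0, and segment 4 was not. The segment just inside this limit was segment 1, at -0.28, and the one outside it was segment 4, at -0.08.

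In the libraries of 3 exposures, which placed the breaks, the MGMT line had a mean log2 ratio to the WT line of -0.28 in segment 1, -0.46 in segment 2, -0.30 in segment 3 and -0.08 in segment 4. The SD over windows was 0.093 in segment 1, 0.076 in segment 2, 0.078 in segment 3 and 0.075 in segment 4, against a noise SD of 0.071 estimated from neighbouring windows. All 248 windows of segment 2, all 297 of segment 3 and all 10 of segment 1 lay below 0, as did 59 of 67 in segment 4. The libraries of 1 exposure, which placed no break, gave -0.25, -0.43, -0.28 and -0.05 for the 4 segments in order. Below 0 were 10 of 10 windows of segment 1, 248 of 248 of segment 2, 295 of 297 of segment 3 and 50 of 67 of segment 4. Outside chromosome 20 the median autosomal 1 Mb window was at -0.02 in both sets. DNA of many cells was pooled in each library, so a lower density in every cell and a still lower one in some of the cells cannot be told apart. No copy number was measured, and whether the lower site density stands for fewer copies was not tested.

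**Figure D1:**
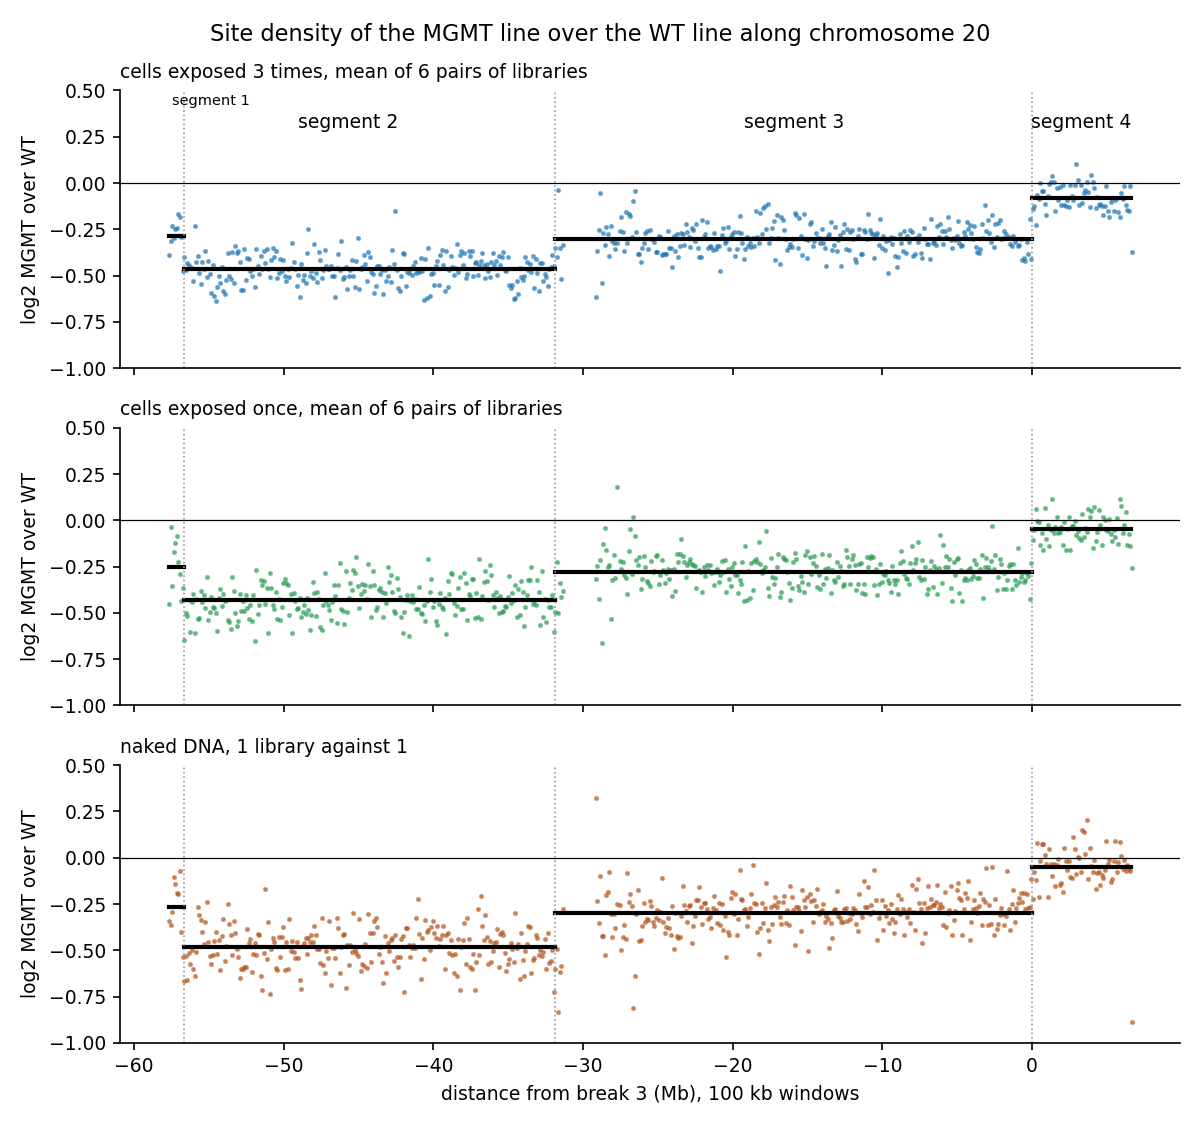
Log2 ratio of site density, MGMT over WT line, in each of the 622 windows of chromosome 20 (y axis) against the distance from break 3 in Mb (x axis). Points are windows, black bars segment means and dotted lines breaks. The 3 panels (cells exposed 3 times, cells exposed once, and naked DNA, 1 library of each line) show the 4 segments in the same order, with segment 2 lowest at -0.46, -0.43 and -0.48.

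Relative density is the number of sites per 100 kb in a segment (the geometric mean over its windows) divided by that of the library's median autosomal window outside chromosome 20. In segment 2, the WT libraries of 1 solvent exposure had relative densities of 1.59, 1.60 and 1.63, and the MGMT libraries 1.365, 1.12 and 1.13. After 1 TMZ exposure the WT libraries had 1.61, 1.62 and 1.61 and the MGMT libraries 1.23, 1.16 and 1.18. The lowest WT library stood above the highest MGMT library in both treatments. After 3 solvent exposures the WT libraries had 1.55, 1.61 and 1.61, and the MGMT libraries 1.12, 1.13 and 1.12. After 3 TMZ exposures the WT libraries had 1.64, 1.64 and 1.65, and the MGMT libraries 1.21, 1.22 and 1.23. In segment 2 the lines overlapped in none of the 4 conditions: over all 24 libraries of cells, WT ranged from 1.55 to 1.65 and MGMT from 1.12 to 1.365. The library at 1.365 is the one that stood apart above.

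Same-numbered libraries of the lines were set against each other to describe the spread. The log2 difference in segment 2 was -0.42 ± 0.18 (SD, n = 3 pairs) after 1 solvent exposure and -0.44 ± 0.051 (SD, n = 3 pairs) after 1 TMZ exposure. The first value was -0.52 and -0.53 in the pairs of replicates 2 and 3, and -0.22 in the pair of replicate 1, which holds both solvent libraries of 1 exposure named above. After 3 exposures the difference was -0.50 ± 0.024 (SD, n = 3 pairs) with solvent and -0.43 ± 0.0078 (SD, n = 3 pairs) with TMZ. It was below 0 in 12 of 12 pairs. Without the solvent pair of 1 exposure, replicate 1, the other 5 pairs of 1 exposure gave -0.28 ± 0.069, -0.47 ± 0.058, -0.31 ± 0.039 and -0.10 ± 0.077 in segments 1 to 4 (SD).

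Segment 3 differed less. Its relative density was 1.71 ± 0.025 in WT and 1.40 ± 0.043 in MGMT cells (SD, n = 3 each) after 3 solvent exposures, and 1.92 ± 0.025 against 1.55 ± 0.029 after 3 TMZ exposures. With 1 exposure, the values were 1.79 ± 0.083 against 1.5 ± 0.20 with solvent and 1.82 ± 0.074 against 1.49 ± 0.056 with TMZ (SD, n = 3 each). The lines overlapped only with 1 solvent exposure, where the MGMT library that stood apart had 1.73 and the lowest WT library 1.69. The pair difference over all 12 pairs was -0.29 ± 0.064 (SD) and was below 0 in 12 of 12.

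Segment 1 held only 345 to 4936 sites in a library of cells and varied more. Its relative density was 1.39 ± 0.061 against 1.11 ± 0.023 (WT and MGMT, SD, n = 3 each) after 3 solvent exposures and 1.58 ± 0.022 against 1.33 ± 0.071 after 3 TMZ exposures. With 1 exposure it was 1.43 ± 0.12 against 1.2 ± 0.21 with solvent and 1.44 ± 0.064 against 1.22 ± 0.014 with TMZ (SD, n = 3 each). The lines overlapped only with 1 solvent exposure, where the highest MGMT library had 1.44 and the lowest WT library 1.35. The pair difference was -0.27 ± 0.084 (SD, n = 12 pairs) and was below 0 in 12 of 12 pairs.

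In segment 4 the lines overlapped in every condition. Its relative density was 1.72 ± 0.049 against 1.65 ± 0.091 (WT and MGMT, SD, n = 3 each) after 3 solvent exposures and 2.46 ± 0.12 against 2.295 ± 0.13 after 3 TMZ exposures. The pair difference was -0.06 ± 0.12 (SD, n = 12 pairs), from -0.17 to 0.24, and was below 0 in 9 of 12 pairs. The 0.24 is the solvent pair of 1 exposure, replicate 1, which holds the MGMT library that stood apart; the other 11 pairs were at -0.09 ± 0.072 (SD), from -0.17 to 0.05. In naked DNA its density was 2.60 in the MGMT and 2.70 in the WT line. It is the most GC-rich of the 4 segments (a median of 49.1% G and C among the sites of a window in the solvent libraries, against 40.3% in segment 2).

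**Figure D2:**
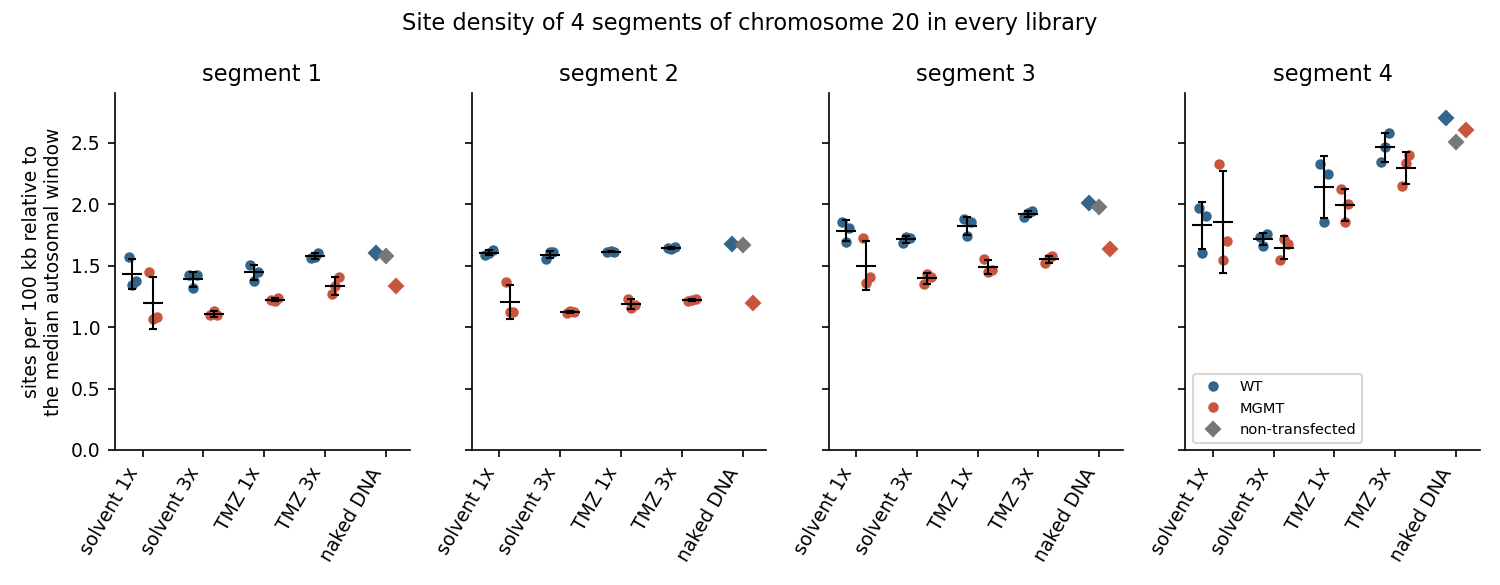
Relative site density (y axis, sites per 100 kb over the library's median autosomal window) of the 4 segments in each library, by treatment and number of exposures (x axis); circles are libraries of cells, black bars their mean and SD (n = 3), and diamonds the single naked DNA libraries. In segment 2 every MGMT library, at most 1.365, lies below every WT library, at least 1.55; in segment 4 the lines overlap in each group.

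With a correction for GC content, the relative density of the 12 WT libraries was 1.34 ± 0.046, 1.56 ± 0.023, 1.68 ± 0.025 and 1.77 ± 0.068 (SD) in segments 1 to 4, and that of the 12 MGMT libraries 1.11 ± 0.053, 1.14 ± 0.063, 1.38 ± 0.043 and 1.72 ± 0.062. All 4 segments of the WT line were thus denser than the median autosomal window, and so were all 4 of the MGMT line, by least in segments 1 and 2. The difference between the lines, corrected in this way, was -0.28, -0.47, -0.29 and -0.05 in the libraries of 3 exposures.

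The steps between segments were also measured within chromosome 20 alone, by the ratio of a segment's sites to those of segment 4, which needs no scaling of the libraries. In segment 2 this log2 ratio differed, MGMT minus WT, by -0.39 ± 0.11 (SD, n = 6 pairs) after 1 exposure and -0.39 ± 0.099 after 3. In segment 3 the difference was -0.24 ± 0.076 and -0.23 ± 0.045, and in segment 1 it was -0.20 ± 0.12 and -0.21 ± 0.092. All 6 pairs were below 0 in each of the 6 cases. With only sites listed in 1 library, segment 2 gave -0.40 after 1 exposure and -0.40 after 3, and segment 3 gave -0.24 and -0.23, so leaving out the shared sites changed these values by less than the SD over pairs. Forward-strand sites gave -0.38 and -0.40 in segment 2, and reverse-strand sites -0.40 and -0.37. The ratio between segments 2 and 3 differed by -0.15 ± 0.050 after 1 exposure and by -0.16 ± 0.057 after 3 (SD, n = 6 pairs), with 6 of 6 pairs below 0 in both. Segments 1 and 3, by contrast, differed by 0.02 ± 0.060 and 0.02 ± 0.078, with pairs on both sides of 0.

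Break 3 was the best placed. It lay at 57700001 with 100 kb windows, at 57750001 with 50 kb windows and at 57740001 with 20 kb windows, and within 500 kb of the first value in 11 of 12 pairs of libraries analysed singly. The exception, at 61300001, was the solvent pair of 1 exposure, replicate 1. Every pair was given a position for each break, so counts of pairs, here and for the other breaks, describe its place. They do not show that each pair has the break. In cells exposed 3 times the 5 windows from 600 to 100 kb before the break had log2 ratios of -0.41, -0.42, -0.32, -0.38 and -0.19, the window that ends at it had -0.41, and the 6 after it had -0.14, -0.13, -0.23, -0.07, -0.09 and -0.001. The 100 kb position falls inside PMEPA1 (chr20:57648396-57711472), and those of 50 and 20 kb windows lie past its end. PMEPA1 encodes a membrane protein that dampens TGF-beta and androgen signalling. ZBP1 (chr20:57603852-57620426), a sensor of Z-form nucleic acids, lies 79.6 kb to the left, and CIMIP1 (chr20:58150902-58161150) 451 kb to the right. TMZ libraries of 1 exposure placed the break at 57800001, also past PMEPA1. Naked DNA placed it at 57800001 as the best single split and at 57600001, left of PMEPA1, in the penalised partition. G sites alone placed it at 58300001, beyond CIMIP1. Whether a gene holds the break is therefore not settled. The log2 ratio over the body of PMEPA1 was -0.25 ± 0.40 after 1 exposure and -0.39 ± 0.23 after 3 (SD, n = 6 pairs), and 5 of 6 pairs were below 0 after 1 exposure.

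Break 2 lay at 25800001, next to the centromeric block without usable windows. Across pairs of libraries it was placed between 17200001 and 29200001, and within 500 kb of the main position in 7 of 12. The 6 windows before it ranged from -0.56 to -0.39 and the 6 after it from -0.52 to -0.04, with no sharp step in this stretch. Naked DNA placed it at 26300001 and the correction for GC content at 28600001, on the other side of the block. With libraries averaged, the change between the levels of segments 2 and 3 was therefore placed only in or next to the centromeric region. It lay from 25600001 to 29000001 over the alternatives, and single pairs placed it as far away as 17200001. The nearest protein-coding gene on the short-arm side was ZNF337 (chr20:25673195-25696853), a zinc finger gene, at 103 kb. On the long-arm side it was LOC124904970 (chr20:30813427-30815092), at 5013 kb.

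Break 1 lay at 1000001, the first place that the smallest allowed segment of 10 windows permits. With a smallest segment of 5 windows it moved to 900001, with 50 kb windows to 1050001 and with 20 kb windows to 1080001. In cells exposed 3 times the windows from 600 to 200 kb before it had -0.25, -0.24, -0.17 and -0.19, the next had -0.29, and the last before it was already at -0.47. Naked DNA gave -0.40 and -0.54 in those last 2 windows, after -0.07 in the window before them. The 100 kb position lies in RSPO4 (chr20:958452-1002311), which encodes a secreted enhancer of Wnt signalling. The position 900001 lies in ANGPT4, and 1050001 and 1080001 lie between RSPO4 and PSMF1, so whether a gene holds this break is not settled. ANGPT4 (chr20:869900-916334), a ligand of the receptor TIE2, lies 83.7 kb to the left of the 100 kb position, and PSMF1 (chr20:1113263-1172246), an inhibitor of the proteasome, 113 kb to the right. In the single pairs this break was placed within 500 kb in 7 of 12. Over the gene bodies, the log2 ratio after 1 exposure was -0.68 ± 0.24 in ANGPT4, -0.35 ± 0.20 in RSPO4 and -0.43 ± 0.21 in PSMF1 (SD, n = 6 pairs), with all 6 pairs below 0 in each. Each of these genes is shorter than a 100 kb window, and the windows that ANGPT4 spans were at -0.43 and -0.36 after 1 exposure.

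**Figure D3:**
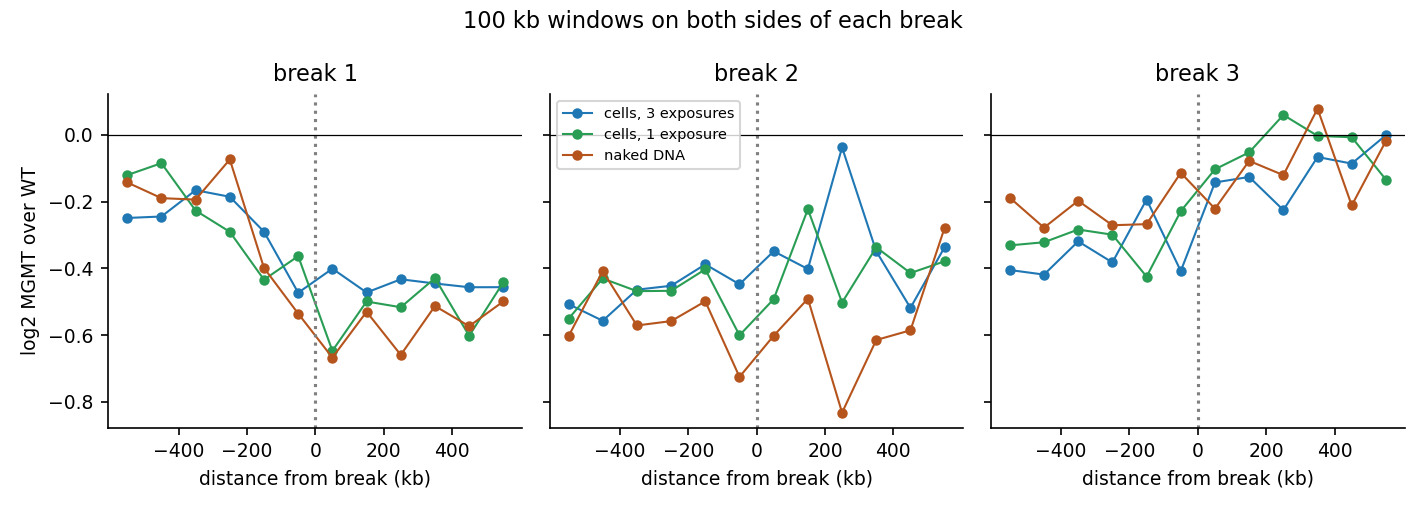
Log2 ratio of site density, MGMT over WT (y axis), in the 100 kb windows from 600 kb before to 600 kb after each break (x axis, kb), for cells exposed 3 times, cells exposed once and naked DNA. At break 3 the ratio of cells exposed 3 times goes from -0.41 in the last window before it to -0.14 in the first after it, at break 1 the ratio of these cells and of naked DNA is already lower in the last 2 windows before the position, and break 2 shows no sharp step.

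Naked DNA, which no cell had repaired, had ratios between the lines close to those of cells, with 1 library of each line. Its relative densities were higher in all 4 segments than the means after 3 solvent exposures in the same line. Against the means after 3 TMZ exposures they were higher in all 4 segments of the WT line. In the MGMT line they were higher only in segments 3 and 4 (segment 1: 1.333 against 1.334, segment 2: 1.197 against 1.222). With the correction for GC content, segment 1 was lower in naked DNA than after 3 solvent exposures (1.30 against 1.36 in WT, 1.07 against 1.08 in MGMT), and segments 2 and 4 were higher. The relative densities of the MGMT line in segments 1 to 4 were 1.33, 1.20, 1.64 and 2.60. Those of the WT line were 1.60, 1.68, 2.01 and 2.70, and those of non-transfected cells 1.58, 1.67, 1.97 and 2.51. The MGMT line was thus at -0.26, -0.48, -0.30 and -0.05 relative to the WT line and at -0.24, -0.48, -0.27 and 0.05 relative to non-transfected cells. The WT line and the non-transfected cells differed by 0.02, 0.01, 0.02 and 0.10, and after the correction for GC content by -0.02, -0.004, -0.01 and 0.03. In segment 2 the MGMT library lay below the WT library in 248 of 248 windows and below the non-transfected library in 248 of 248, while WT lay below non-transfected in 108. In segment 3 the counts were 296, 293 and 104 of 297. Single windows strayed further: in the one from 31000001, WT over non-transfected was at -1.21 and MGMT over non-transfected at -2.02. With 1 library a line there is no replicate check and no test, and each library enters 2 of the 3 comparisons. Each also carries its own replicate number, so line and replicate number cannot be told apart in naked DNA.

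**Figure D4:**
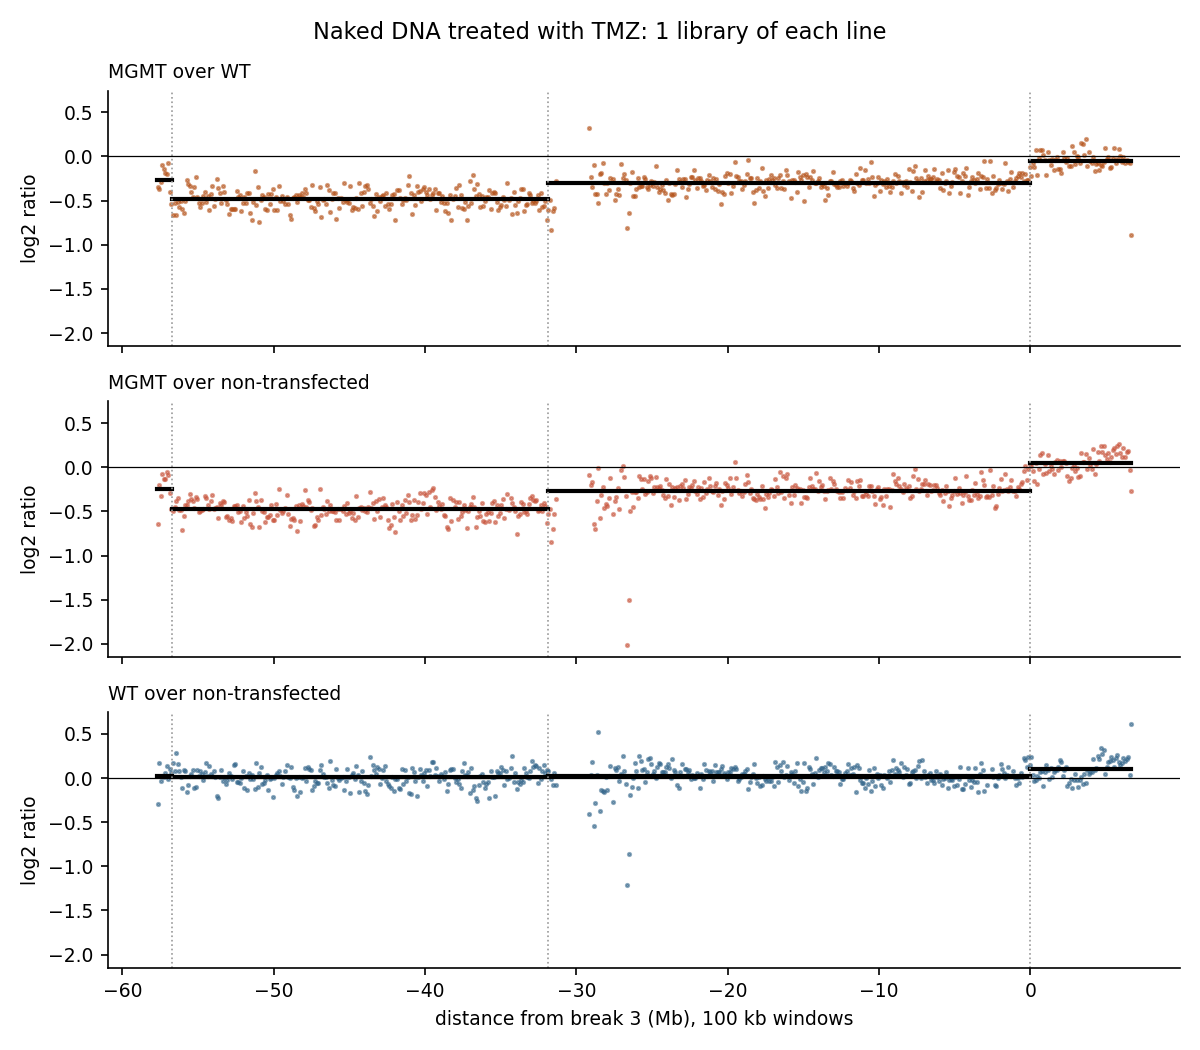
Log2 ratio of site density between single naked DNA libraries in the windows of chromosome 20 (y axis) against the distance from break 3 in Mb (x axis). Points are windows and black bars segment means. The MGMT library is lower than both others over segments 1 to 3, at -0.48 in segment 2. The third panel, WT over non-transfected, has means of 0.01 in segment 2 and 0.10 in segment 4, with a window of segment 3 at -1.21.

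After 3 exposures and in naked DNA, the difference between the lines was close in size at G and at the other bases. After 1 solvent exposure it was less close. In segment 2, G then had -0.37 ± 0.28 and A, C and T together -0.47 ± 0.087 (SD, n = 3 pairs), with the highest G pair at -0.04. After 1 TMZ exposure these values were -0.41 ± 0.083 and -0.45 ± 0.040. With 3 exposures, G alone gave -0.31, -0.46, -0.30 and -0.10 in segments 1 to 4, and A, C and T together gave -0.29, -0.47, -0.30 and -0.07. In segment 2 the 4 bases A, C, G and T had -0.52, -0.48, -0.52 and -0.49 after 3 solvent exposures and -0.42, -0.48, -0.41 and -0.45 after 3 TMZ exposures. In naked DNA of the lines segment 2 had -0.48 for G and -0.49 for the other bases. In TMZ libraries of cells, the G share of sites in segment 2 was 49.2% ± 11.7 in MGMT and 54.7% ± 9.11 in WT (SD, n = 6 each). Measured against the other autosomes of the same library, the G share of segment 2 was 1.16 ± 0.56 percentage points higher in MGMT and 0.49 ± 0.34 in WT. That excess differed between the lines by 0.67 ± 0.57 points (SD, n = 6 pairs; above 0 in 6 of 6), by 0.26 ± 0.40 in segment 3 (5 of 6), 1.02 ± 1.32 in segment 1 (5 of 6) and 0.88 ± 1.74 in segment 4 (3 of 6). In solvent libraries the excess of segment 2 differed by 0.71 ± 2.33 points (SD, n = 6 pairs) but was below 0 in 5 of 6. The highest value, 5.47, came from the pair that holds the MGMT library that stood apart.

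All windows of the genome were then compared between the lines with limma's voom, in the 12 libraries of 1 exposure. For the mean of solvent and TMZ, 360 of 622 windows of chromosome 20 were lower in MGMT at an adjusted p of 0.05 or less (Benjamini-Hochberg over 28326 windows) and 0 were higher. Across the genome 5.27% of windows were called lower and 11.7% higher. The calls were 239 of 248 windows in segment 2, 117 of 297 in segment 3, 4 of 10 in segment 1 and 0 of 67 in segment 4, where 0 windows also had an unadjusted p under 0.05 (7903 of 28326 did in the genome). With a block for replicate number they were 247, 214, 6 and 0 in the same order, 467 on chromosome 20. That fit called 4493 of 28326 windows over the genome in both directions. In segment 4, 5 windows then had an unadjusted p under 0.05. As chromosome 20 was chosen on this contrast, these counts describe it and are no further support. They also depended on single replicates: 6 windows were called without the replicate 3 libraries of both lines, 123 without replicate 2 and 467 without replicate 1. Over the genome, in both directions, those fits called 400 of 28282, 1547 of 28252 and 5788 of 28326 windows. With no minimum score limma called 148, against 1.94% genome-wide. Counts were also simulated with a set dispersion of 0.01 and 200 windows lowered by each amount. The same fit found 11% of those lowered by 0.3 on the log2 scale and 99% of those lowered by 1. The data had 4809 calls among 28326 windows against 229 in the simulation. More calls loosen the adjusted threshold, so these shares are not the power of the fit in the data.

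With solvent alone, 76 windows of chromosome 20 were lower in MGMT by limma (70 of them in segment 2 and 6 in segment 3), against 0.89% of windows genome-wide, and 0 were higher, against 2.5%. With TMZ alone, 147 were lower (126 in segment 2 and 21 in segment 3), against 2.04%, and 0 were higher, against 4.27%. Leaving out the replicate 2 libraries left 0 with solvent and 3 with TMZ, leaving out replicate 3 left 0 and 0, and leaving out replicate 1 gave 222 and 203. Those fits called, over the genome and in both directions, 19 and 282 of 28252 windows without replicate 2. They called 5 and 13 of 28282 without replicate 3, and 2143 and 2226 of 28326 without replicate 1. With no minimum score, limma called 0 windows lower with solvent, against 0%, and 1 with TMZ, against 0.0927%. With limma-trend it called 40 with solvent, against 0.47%, and 16 with TMZ, against 0.314%. For G alone with solvent, no window of chromosome 20 was called, against 0 of 28058 in the genome. With TMZ no window of it was called either, against 0.0356% called lower and 0.257% called higher genome-wide. At an unadjusted limma p under 0.05, 128 of 620 windows of chromosome 20 passed with solvent, beside 2676 of 28058 in the genome. With TMZ 151 of 620 did, beside 2996 of 28058. In the TMZ libraries of 1 exposure, the deviations of same-numbered libraries correlated in all 3 pairs (r = 0.44, 0.65 and 0.16). In the solvent libraries they did so with r = 0.65, 0.74 and 0.09. Blocking on replicate number, limma called 4 windows lower with solvent at all bases, against 0.0459% genome-wide, 454 with TMZ at all bases, against 7.93%, and 178 with TMZ at G alone, against 2.85%. Without the block, the median window of segment 2 for G alone was at -0.41 with solvent and with TMZ. In 1 Mb windows, G alone gave 9 lower calls among 64 windows of chromosome 20 with solvent (14.1%) and 3 of 64 with TMZ (4.69%), against 1.9% and 2.24% of 1 Mb windows genome-wide.

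Whether TMZ changed the difference at G was tested as an interaction over the 24 libraries of cells. On chromosome 20, 0 of 621 windows were called by limma at an adjusted p of 0.05, against 0.0141% called higher and 0% called lower in the genome. At an unadjusted p under 0.05 there were 27 of 621 on chromosome 20, beside 1452 of 28296 in the genome. The median log2 interaction was 0.06 in segment 2, -0.01 in segment 3, 0.18 in segment 1 and -0.03 in segment 4. On simulated counts that fit found 35% of windows lowered by 1 and 0.5% of those lowered by 0.3, so an interaction of the size of these medians was not detectable in single windows of such counts. At all bases in segment 2, the pairs of 3 exposures lay from -0.52 to -0.47 with solvent and from -0.44 to -0.42 with TMZ. Those of 1 exposure overlapped, from -0.53 to -0.22 and from -0.49 to -0.39. At G the means after 3 exposures were -0.52 and -0.41, and at A, C and T together -0.50 and -0.44. Whether TMZ changed the difference over a whole segment was not tested.

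Chromosome 20 had the lowest median of all chromosomes in every condition: -0.29 and -0.32 after 1 exposure to solvent and TMZ, -0.33 and -0.33 after 3, and -0.31 in naked DNA (1 Mb windows). The next lowest medians were those of chromosome 5 with 1 solvent exposure, at -0.12, with 3, at -0.165, and in naked DNA, at -0.17. Medians above 0.2 were found on chromosomes 1, 2, 15 and X. Those of X (0.39 to 0.47) and 15 (0.30 to 0.34) were larger in size than that of chromosome 20 in every condition. Chromosome 20 is thus neither alone in differing between the lines nor the most unequal chromosome.

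Gene calls here and below rest on the fit without the replicate block. As chromosome 20 was chosen on this contrast, gene calls and adjusted p-values, here and below, describe it and are no further support. Without the replicate 3 libraries, the fit without the block called 6 windows of chromosome 20, against 360 with all replicates. With the block, 247 of 248 windows of segment 2 and 214 of 297 of segment 3 were called, and gene calls for that fit are not given. Of 537 protein-coding genes on the chromosome, 263 had their midpoint in a window called lower in MGMT in the mean of solvent and TMZ, and 0 in one called higher. These were 156 of 158 genes of segment 2, 99 of 271 of segment 3, 8 of 22 of segment 1 and 0 of 86 of segment 4. The median gene had a log2 ratio of -0.28 after 1 exposure, -0.33 after 3 and -0.31 in naked DNA. The 2 genes of segment 2 whose window was not called were TASP1 (adjusted p = 0.0644 by limma), a protease that cleaves the MLL protein, and PCSK2 (adjusted p = 0.0579 by limma), a prohormone convertase. Both had negative ratios, at -0.37 ± 0.16 and -0.33 ± 0.35 over the gene body (SD, n = 6 pairs).

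Values follow for some of the genes with the most sites in segments 1 to 3, and for CDH4 of segment 4. MACROD2 (chr20:13995516-16053197), a mono-ADP-ribosyl hydrolase and the longest gene of the chromosome, had a log2 ratio over its body of -0.42 ± 0.092 after 1 exposure and -0.47 ± 0.085 after 3 (SD, n = 6 pairs each). PLCB1 (chr20:8132266-8884900), a phospholipase C, had -0.46 ± 0.074 and -0.49 ± 0.060. In segment 3, PTPRT (chr20:42031890-43189906), a receptor tyrosine phosphatase, had -0.27 ± 0.11 and -0.28 ± 0.061. TSHZ2 (chr20:52972358-53495330), a zinc finger transcription factor, had -0.32 ± 0.064 and -0.27 ± 0.11, and PREX1 (chr20:48624252-48888185), an activator of Rac, -0.32 ± 0.18 and -0.39 ± 0.063. All 6 pairs were below 0 in each of these 5 genes after 1 exposure. In segment 4, CDH4 (chr20:61252261-61940617), a cadherin of the nervous system, had -0.002 ± 0.22 and -0.03 ± 0.085, with 3 of 6 pairs below 0 after 1 exposure. In segment 1, CSNK2A1 (chr20:472498-543790), the catalytic subunit of casein kinase 2, had -0.25 ± 0.45 and -0.32 ± 0.29 on a median of 102 sites per library.

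Among 15 genes of DNA replication and repair, 10 lay in windows called lower, beside 263 of all 537 genes. They were all 7 in segment 2 (beside 156 of 158 genes there), 3 of 7 in segment 3 (beside 99 of 271) and 0 of 1 in segment 4 (beside 0 of 86). The median gene ratio of the list was -0.28 after 1 exposure, beside -0.28 for all genes of the chromosome. PCNA, the sliding clamp of DNA polymerases (chr20:5114953-5126622), lay in a window at -0.45 ± 0.11 (SE; adjusted p = 0.00433 by limma). MCM8, a helicase of recombination repair (chr20:5950652-5998977), lay in one at -0.57 ± 0.11 (adjusted p = 0.000896), and GINS1, a subunit of the replicative helicase (chr20:25407673-25448563), in one at -0.53 ± 0.13 (adjusted p = 0.00627). The window of E2F1, a transcription factor of S-phase genes in segment 3, was at -0.46 ± 0.14 (adjusted p = 0.0244). TOP1, the type I topoisomerase of segment 3, had -0.23 ± 0.096 and was not called (adjusted p = 0.115), and RTEL1, a helicase of telomeres in segment 4, had -0.001 ± 0.16 (adjusted p = 0.998).

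Of 10 genes of mitosis, 5 lay in windows called lower, beside 263 of all 537. They were 1 of 1 in segment 2 and 4 of 9 in segment 3, beside 99 of 271 genes of segment 3. The window of AURKA, the kinase of spindle assembly (chr20:56369390-56392215), was at -0.39 ± 0.093 (SE; adjusted p = 0.00462 by limma). That of TPX2, its activator, was at -0.22 ± 0.096 and was not called (adjusted p = 0.129). The list's median gene ratio was -0.33 after 1 exposure.

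Of 30 genes studied in cancer for growth, survival or transcription, 10 lay in windows called lower, beside 263 of all 537. They were 2 of 2 in segment 2, 8 of 22 in segment 3 (beside 99 of 271 genes there), 0 of 3 in segment 1 (beside 8 of 22) and 0 of 3 in segment 4, with a median gene ratio of -0.24 after 1 exposure. JAG1, a Notch ligand in segment 2, lay in a window at -0.49 ± 0.12 (SE; adjusted p = 0.00704 by limma). STK4, a Hippo pathway kinase in segment 3, lay in one at -0.37 ± 0.092 (adjusted p = 0.00638). The windows of SRC, a tyrosine kinase, and BCL2L1, an inhibitor of apoptosis, both in segment 3, were at -0.29 ± 0.11 (adjusted p = 0.0778) and -0.33 ± 0.12 (adjusted p = 0.0654) and were not called. GNAS, the stimulatory G protein subunit in segment 4, lay in a window at -0.15 ± 0.12 (adjusted p = 0.486).

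Of the 17 longest genes, 10 lay in windows called lower (8 of 9 in segment 2, 2 of 6 in segment 3, 0 of 2 in segment 4), and of 8 genes of the nervous system 5 did (3 of 3, 2 of 2 and 0 of 3). Beside them stand 263 of all 537 genes, with 156 of 158 in segment 2 and 99 of 271 in segment 3. SNAP25, a protein of synaptic vesicle fusion in segment 2, lay in a window at -0.62 ± 0.11 (SE; adjusted p = 0.000462 by limma). The median gene ratios of these lists were -0.34 and -0.24 after 1 exposure. Every listed gene of segment 4 lay in a window that was not called. Site lists give no RNA or protein, so what the lower density means for expression of these genes was not measured.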

How the data were processed

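The data are lists of O6-MeG-seq sites in 27 libraries of LN-229 cells. The deposited files of the authors have no header; each row is a site with its position (counted from 0, given here from 1), strand and base. The authors deposited a whole-number score for each site, made by steps that are not given in the sources used here. The submitters' processing notes name GRCh38, FastQC 0.11.9, Trimmomatic 0.38 and 0.39, cutadapt, Bowtie2 2.3.5.1, GATK 4.2.0.0, SAMtools 1.12 and bedtools 2.29.2, with no role or order.

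Only sites scoring at least 30 entered, and each counted 1 time in its 100 kb window, with Python 3.11.15, numpy 2.4.6 and pandas 2.3.3. Densities are log2 of (sites + 0.5) over the library's median autosomal 1 Mb window outside chromosome 20, per 100 kb; the plan had named 100 kb windows for this median, which are too coarse in sparse libraries. Breaks come from a least-squares partition with a penalty of 3 times the noise variance times the natural log of the number of windows per break and at least 10 windows per segment. Windows with 10 sites in 3 libraries were tested with limma 3.58.1 (voom, R 4.3.3, library sizes by trimmed means, 30% of ratios and 5% of averages trimmed), and the fits were tested on simulated data. The chance error of a count falls with depth (24117 to 542582 chromosome 20 sites per library). The GC correction used the bases of sites in solvent libraries, since no genome was used. Chromosome 20 members, breaks and gene lists were chosen with earlier results of these data known. Named genes hold or flank a break in 100 kb windows, are among the 3 with the most sites of an unequal segment, or belong to 5 lists. Not all such genes are shown, and TASP1 is named because its window was not called. Coordinates are from RefSeq (GRCh38.p14). Upstream sequences had the bases of the listed sites at 100% of 21964 positions compared. The main fits have no replicate block. Same-numbered libraries deviated together with r over 0.1 in 5 of the 6 pairs of 1 exposure, which those fits use (all 3 with TMZ), and in 2 of 6 after 3 exposures. Blocked counts stand beside the window counts they change, and gene calls are given without the block. Differences of same-numbered libraries are given to describe the spread. Alternatives were other sizes, filters, scores, windows, bases, limma-trend, a GC correction, a replicate block and leaving out replicates; 2 within chromosome 20, and leaving out the solvent pair of 1 exposure, replicate 1, were chosen after seeing the data.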

Additional observations from a re-analysis of the deposited data

How the results depend on the processing

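The mean log2 ratios of the 4 segments kept their direction in every alternative except segment 4, which was never called unequal. Leaving out a replicate gave -0.31 to -0.26 in segment 1, -0.47 to -0.46 in segment 2, -0.31 to -0.29 in segment 3 and -0.12 to -0.05 in segment 4. The libraries of 1 solvent exposure moved segments 2, 3 and 4 by more than the SD over pairs, to -0.42, -0.26 and 0.0064. Without their replicate 1 pair, an alternative chosen after seeing the data, they gave -0.52, -0.34 and -0.11, on the other side of the 3-exposure values.

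With 1 solvent exposure the penalty found no break 1, and the best single split lay at 12000001. Break 2 moved to 28700001 with A, C and T alone, to 28600001 with no minimum score, with 3 solvent exposures alone or with the GC correction, and to 29000001 with 1 solvent exposure. Break 3 moved to 58300001 with G alone. Without a replicate, break 1 lay from 1000001 to 1100001, break 2 from 25800001 to 28700001 and break 3 from 57700001 to 58000001.

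Windows called on chromosome 20 for the mean of both treatments, all bases (360), were 148 with no minimum score and 47 of 64 in 1 Mb windows. Over the genome, in both directions, they were 1671 of 29127 and 937 of 2909. With solvent (76) the calls on chromosome 20 were 0 with no minimum score, 40 with limma-trend, 31 in 1 Mb and 23 in 50 kb windows. With TMZ (147) they were 1, 16, 37 and 56 in the same order. Over the genome these settings called 7 of 29127, 478 of 28326, 623 of 2909 and 306 of 56245 with solvent, and 190, 291, 721 and 1034 with TMZ. With the replicate block, calls went to 467 for the mean, 4 with solvent, 454 with TMZ and 178 with TMZ at G alone (0 without it), and with block and GC correction to 33 with solvent, 439 with TMZ and 186 with TMZ at G. Over the genome, in both directions, the block called 4493, 48, 5889 and 2374 windows, and block and GC correction 138, 6018 and 2485. G alone gave 9 (solvent) and 3 (TMZ) in 1 Mb windows. Leaving out a replicate gave 6 to 467 calls for the mean, 0 to 222 with solvent, 0 to 203 with TMZ and 0 to 9 with TMZ at G. Over the genome, in both directions, the same fits called 400 to 5788, 5 to 2143, 13 to 2226 and 0 to 227 windows, of 27801 to 28326 tested. The interaction had 0 calls in every alternative. All calls on chromosome 20 in all alternatives were lower in MGMT. The causes of these moves were not tested.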
